A study of Mus musculus with 51 samples.

Results

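Transcripts of 9 genes that mark neutrophils and the granules they carry, S100a8, S100a9, Retnlg, Camp, Ngp, Ltf, Mpo, Elane and G0s2, were followed in mouse lung after bleomycin. They were taken by symbol from a count table of 36528 NCBI Entrez gene identifiers, in which all 9 were present. Male C57/B6 mice were given saline or bleomycin, a DNA-damaging drug used to model lung fibrosis, into the trachea, and lungs were taken at day 14 (5 saline and 8 bleomycin animals). No mutant allele is named in the labels, and the sources used here give no age. Lung cells were sorted by flow cytometry into CD45+ (leukocyte), CD31+ (endothelial) and EpCAM+ (epithelial) cells and into triple-negative cells that carried none of these surface proteins. The 51 libraries comprise 8 bleomycin and 5 saline libraries of each fraction, except that CD31+ cells have 7 bleomycin libraries. The sort named in the labels used no neutrophil surface protein, so CD45+ cells include leukocytes of every kind.

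Neutrophils are made in the bone marrow and load their granules in sequence: primary granules with Mpo and Elane first, then specific granules with Ltf, Camp and Ngp, and last gelatinase granules. Transcription of granule proteins largely ends before the cell enters the blood, whereas S100a8, S100a9, Retnlg and G0s2 remain abundant in the mature cell. The products of S100a8 and S100a9 lie in the cytosol rather than in a granule, and lactoferrin, the product of Ltf, is also made by glandular epithelium.

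The CD45+ libraries held 18.0 to 24.2 M (mega) counts after bleomycin and 17.8 to 21.5 M counts after saline, and all 51 libraries held 15.7 to 36.5 M. A count of 3, taken here as the limit of detection, corresponds to between 0.0822 and 0.191 CPM (counts per M counts of the library) depending on the library. Ptprc, which encodes CD45, averaged 1606 ± 218 CPM (SD, n = 5) in saline and 1052 ± 164 CPM (SD, n = 8) in bleomycin CD45+ libraries, and at most 21.5 CPM on average in any group of another fraction. One library stood apart for several of the 9 genes: Bleomycin_CD45_616 had the highest S100a8, S100a9, Retnlg, Ngp and G0s2 of the 8 bleomycin CD45+ libraries. For S100a8, S100a9, Retnlg and the count of lower genes, the result in CD45+ libraries is given with and without it. Separate numbering of the libraries in the labels gives no link between fractions, so p-values measure the spread between libraries taken as independent.

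In CD45+ libraries, 7 of the 9 genes passed the filter on low counts. Of these 7, G0s2, Ngp, S100a9 and Camp were lower after bleomycin, S100a8, Retnlg and Ltf did not pass the threshold, and none was higher. Without Bleomycin_CD45_616, 6 of the 9 genes were lower and 0 higher, in a fit that called 8861 genes in either direction. The test was the quasi-likelihood F test of edgeR, with a threshold of 0.05 on p-values that were Benjamini-Hochberg adjusted across the 16493 genes tested. In the same comparison 26.8% of all genes tested were called lower and 28.4% higher, so 4 lower genes of 7 stand beside a large background of calls. Camp is 1 of the 4 and passed the filter through its saline libraries alone, so it adds no support to that count. The median log2 change of the 7 was -1.18, and that of all genes tested was -0.0043. In bulk libraries, fewer cells of a type and less RNA per cell cannot be told apart.

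**Figure D1:**
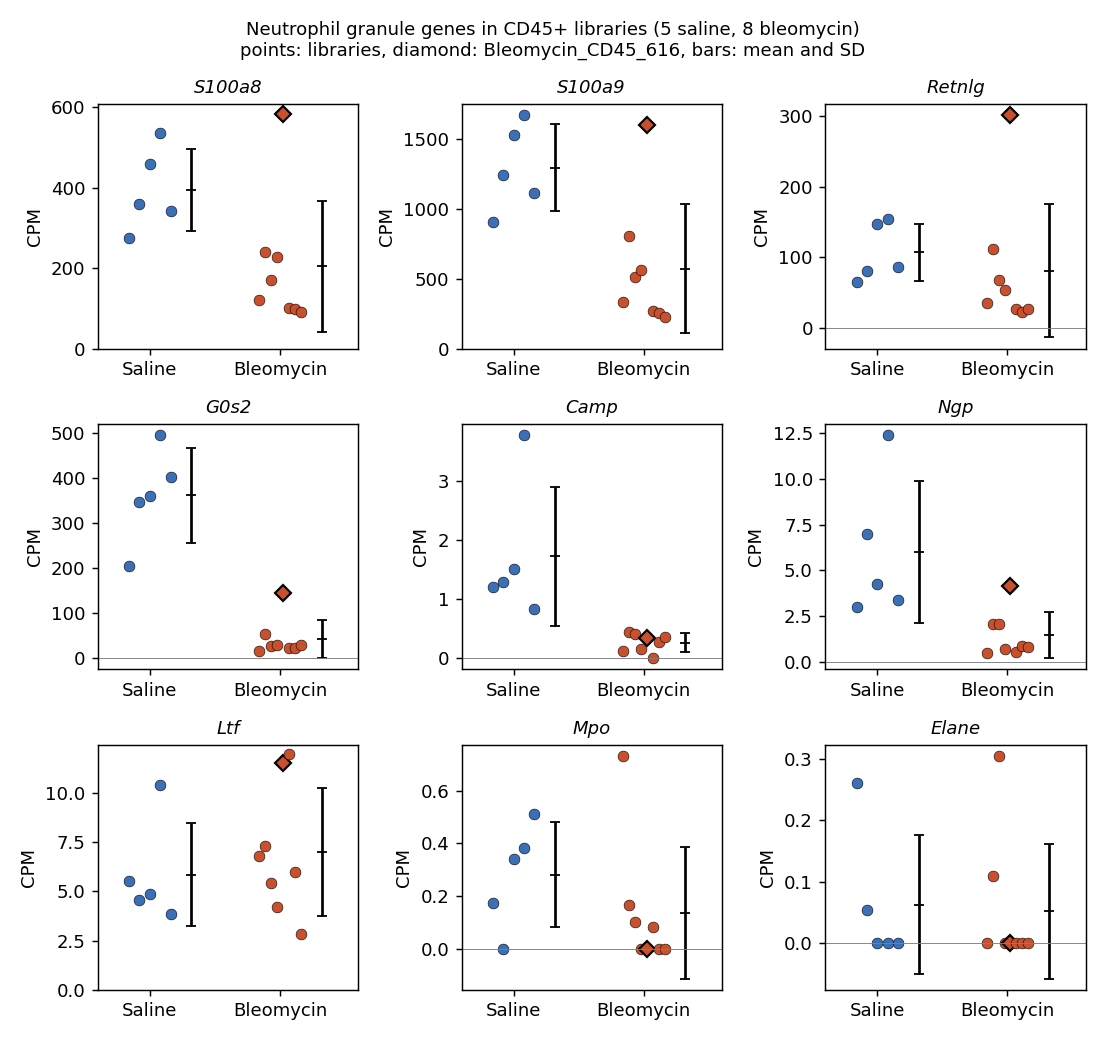
Levels of the 9 genes in CD45+ libraries, in CPM on linear axes. Points are libraries (5 saline, 8 bleomycin), bars are mean and SD, and the diamond is Bleomycin_CD45_616. G0s2 and Camp do not overlap between the groups, as for 13.4% of all genes tested with bleomycin lower. Bleomycin_CD45_616 lies above every saline library for S100a8 (582 CPM) and Retnlg (302 CPM).

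S100a8 and S100a9 encode the partner subunits of calprotectin, a calcium-binding and metal-sequestering protein that makes up much of the neutrophil cytosol. S100a8 (chr3:90669071-90670034, plus strand, GRCm38.p6) and S100a9 (chr3:90692630-90695721, minus strand) lie 22.6 kb apart. The 250 bases before each start site are shown because this pair moved more closely together than any other 2 of the 9 genes. They are credited to RefSeq, written on the strand of the gene, with matches to 3 motifs in capitals.

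S100a8 promoter, chr3:90668821-90669070: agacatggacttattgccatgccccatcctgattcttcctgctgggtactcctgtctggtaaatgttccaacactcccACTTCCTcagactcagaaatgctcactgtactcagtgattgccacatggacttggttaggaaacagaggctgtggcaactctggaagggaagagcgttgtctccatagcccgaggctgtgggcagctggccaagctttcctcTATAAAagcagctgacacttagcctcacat
S100a9 promoter, chr3:90695722-90695971: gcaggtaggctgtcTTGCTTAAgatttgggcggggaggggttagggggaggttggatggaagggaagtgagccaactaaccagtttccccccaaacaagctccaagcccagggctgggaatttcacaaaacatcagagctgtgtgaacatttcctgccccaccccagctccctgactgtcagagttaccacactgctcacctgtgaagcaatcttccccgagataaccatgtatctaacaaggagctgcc

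The motifs searched, on both strands, were TTGCNNAA for C/EBP factors and AGGAAGT for PU.1, 2 kinds of factor that act in granulocyte development, and TATAAA for the TATA box. S100a8 had a PU.1 match that began 172 bases and a TATA box that began 30 bases before the start, and S100a9 had a C/EBP match 236 bases before it. Of 32851 RefSeq promoters of the same length, 9.56% held the C/EBP letters, 7.69% the PU.1 letters and 12.4% the TATA letters, so such matches are common, and they are a description and not sites of binding.

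S100a8 stood at 276, 359, 460.0, 535 and 342 CPM in the 5 saline CD45+ libraries, and at 91.3 (lowest), 147 (median) and 582 CPM (highest) in the 8 bleomycin libraries. Of the bleomycin libraries 7 lay below every saline library and 1, Bleomycin_CD45_616, lay above them all. The difference was -0.95 ± 0.43 (log2, SE) and missed the threshold (edgeR, adjusted p = 0.0785). Without Bleomycin_CD45_616 it was -1.42 with an adjusted p of 8.55e-04.

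S100a9 stood at 904, 1242, 1530, 1677 and 1117 CPM in saline libraries, and at 229 (lowest), 422 (median) and 1605 CPM (highest) after bleomycin. Again 7 bleomycin libraries lay below every saline library, and Bleomycin_CD45_616 lay within the saline range. The difference of -1.18 ± 0.44 (log2, SE) passed the threshold narrowly (edgeR, adjusted p = 0.0385). Without Bleomycin_CD45_616 it was -1.64 with an adjusted p of 7.8e-04. The call was lost when any of 9 other libraries was left out, with adjusted p from 0.0501 to 0.0918. These were Bleomycin_CD45_612, Bleomycin_CD45_614, Bleomycin_CD45_615, Bleomycin_CD45_617, Bleomycin_CD45_618, Saline_CD45_645, Saline_CD45_646, Saline_CD45_647 and Saline_CD45_648.

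Retnlg encodes resistin-like gamma, a small secreted protein of mouse neutrophils and bone marrow. It stood at 65.5, 81.4, 147, 154 and 87.0 CPM in saline libraries and at 22.5 (lowest), 44.8 (median) and 302 CPM (highest) in bleomycin libraries. The groups overlapped, with 5 bleomycin libraries below every saline library and Bleomycin_CD45_616 above all of them. The difference was -0.41 ± 0.62 (log2, SE; edgeR, adjusted p = 0.601), and without that library it was -1.15 with an adjusted p of 0.0326. Retnlg thus passed the threshold when that 1 library was left out and not when it was kept.

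G0s2 encodes an inhibitor of adipose triglyceride lipase and is among the abundant transcripts of mature neutrophils. It stood at 204, 348, 359.7, 495 and 403 CPM in saline CD45+ libraries and at 15.6 (lowest), 28.0 (median) and 145 CPM (highest) after bleomycin. No bleomycin library reached the lowest saline library, although Bleomycin_CD45_616 again came closest. The difference was -3.07 ± 0.50 (log2, SE; edgeR, adjusted p = 2.4e-04), an 8.38-fold lower level, and it stayed between -3.68 and -2.92 when any 1 library was left out. Groups that do not overlap, with bleomycin lower, were found for 13.4% of all genes tested in CD45+ libraries.

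Camp and Ngp are genes of the specific granule. Camp encodes the mouse cathelicidin, an antimicrobial peptide precursor, and Ngp the neutrophilic granule protein, a relative of the cathelicidin and cystatin families. They lie 570 kb apart on chromosome 9, and Ltf lies 596 kb beyond Ngp. Camp was rare: saline libraries held 28, 24, 31, 69 and 18 counts (1.21, 1.28, 1.5, 3.78 and 0.837 CPM), and bleomycin libraries held between 0 and 8 counts, at 0 (lowest), 0.307 (median) and 0.438 CPM (highest). The groups did not overlap, as for 13.4% of all genes tested in CD45+ libraries with bleomycin lower. The difference was -2.72 ± 0.50 (log2, SE; edgeR, adjusted p = 3.35e-04). Camp passed the filter through its saline libraries, all 5 of which exceeded the filter's 0.493 CPM while 0 of 8 bleomycin libraries did. Its entry thus rested on the group where it was high, and the test supports nothing on its own. In a fit without the filter the difference was -2.70 (log2), on the same 0 to 8 counts per bleomycin library.

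Ngp stood at 2.99, 6.96, 4.27, 12.4 and 3.35 CPM in saline libraries and at 0.452 (lowest), 0.837 (median) and 4.12 CPM (highest) after bleomycin. The library at 4.12 CPM was Bleomycin_CD45_616, and the other 7 lay below every saline library. The difference was -2.05 ± 0.52 (log2, SE; edgeR, adjusted p = 0.00425), or 4.13-fold lower, and every fit that left out 1 library kept it past the threshold.

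Ltf encodes lactoferrin, an iron-binding protein of the specific granule. It stood at 5.55, 4.55, 4.90, 10.4 and 3.86 CPM in saline CD45+ libraries and at 2.82 (lowest), 6.41 (median) and 12.0 CPM (highest) in bleomycin libraries. The groups overlapped almost fully, and the difference was 0.26 ± 0.34 (log2, SE; edgeR, adjusted p = 0.529). Ltf did not pass in either direction. Epithelial markers, 12 in number, summed to 921 (lowest), 1313 (median) and 2521 CPM (highest) in bleomycin CD45+ libraries and to 465, 2454 and 3795 CPM in saline ones. Of the 12, 2 were higher and 3 lower, where 28.4% and 26.8% of all genes tested were. Epcam, 1 of them, stood at 21.8 to 36.9 CPM in bleomycin and 2.41 to 7.50 CPM in saline libraries, and the part of epithelial RNA in these Ltf counts was not tested.

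Mpo, which encodes myeloperoxidase, and Elane, which encodes neutrophil elastase, are genes of the primary granule and fell under the filter in every fraction. Over 164.5 M counts of the 8 bleomycin CD45+ libraries, Mpo held 20 counts (0.122 CPM, exact 95% Poisson interval 0.0743 to 0.188) and Elane 8 (0.0487, 0.021 to 0.0959). Over 96.8 M counts of the 5 saline libraries they held 29 (0.300, 0.201 to 0.430) and 7 (0.0723, 0.0291 to 0.149). The intervals cover counting error only. Within the bleomycin group Mpo was far from even, since Bleomycin_CD45_612 held 13 of its 20 counts and 4 libraries held none. Mpo overlaps the gene Gm34064, and no source used here gives the strand setting of the counting, so reads of these 2 genes cannot be told apart.

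Scaled per kilobase of exon, the median levels in saline CD45+ libraries ran from 2215 CPM per kb for S100a9, over 482 for S100a8, 380.0 for G0s2 and 136 for Retnlg, to 3.21 for Ngp, 1.58 for Camp, 1.31 for Ltf and 0.0912 for Mpo. Elane was at 0 in 3 of the 5. Of the genes named here, S100a9, S100a8, G0s2 and Retnlg thus stood far above Ngp, Camp and Ltf, and these above Mpo and Elane. Other listed genes of the mature cell and of the granules were not scaled in this way. The order is therefore one of these genes and not of their classes. In bleomycin libraries the order was S100a9 (722), S100a8 (188), Retnlg (67.1), G0s2 (28.7), Ltf (1.65), Ngp (0.612) and Camp (0.360). G0s2 had moved behind Retnlg, and Ltf ahead of Ngp and Camp.

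Levels of 6 of the genes were also set against S100a8 within each CD45+ library, as counts per 100 S100a8 counts. An exact two-sided permutation test over the 1287 ways to place 8 of 13 libraries was run on each log2 ratio, with p-values adjusted over the 6 ratios; the smallest p it can give is 7.77e-04. G0s2 ran from 73.9 to 118 per 100 S100a8 counts in saline and from 12.6 to 33.4 in bleomycin libraries. The ratio fell by 2.19 on the log2 scale (exact p = 7.77e-04, adjusted p = 0.00466), with no overlap, Bleomycin_CD45_616 included. Ngp was also lower against S100a8 (-1.0, exact permutation adjusted p = 0.0362), with overlapping ranges. The Camp ratio differed by -1.63, which is given with no test because of its entry through the saline libraries. The S100a9 ratio ran from 313 to 346 in saline and from 247 to 335 in bleomycin libraries, a small difference of -0.26 (exact permutation adjusted p = 0.0186). Ltf was higher against S100a8 (1.41, exact permutation adjusted p = 0.0186), and Retnlg showed a difference of 0.30 that missed the threshold (0.198). The Ngp ratio missed the threshold without Bleomycin_CD45_612 (adjusted p = 0.0511), Bleomycin_CD45_616 (0.0576), Saline_CD45_645 (0.0655) or Saline_CD45_647 (0.0879), each by exact permutation.

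Beyond these 9, 31 other genes had been listed for neutrophils and their granules, and 29 of them were tested in CD45+ libraries. Of the 29, 14 were lower and 3 higher, where 26.8% of all genes tested were lower and 28.4% higher, with a median log2 change of -0.80 against -0.0043 over all genes tested. Without Bleomycin_CD45_616, 20 were lower and 3 higher. The lower ones included Il1r2, a decoy receptor for interleukin-1 (-3.56 ± 0.34, log2, SE; edgeR, adjusted p = 2.23e-06), and Hdc, which makes histamine (-2.99 ± 0.32; 5.63e-06). Trem1, a receptor that amplifies neutrophil activation, changed by -2.05 ± 0.27 (edgeR, adjusted p = 2.93e-05) and Cd177, a surface protein of neutrophils, by -1.53 ± 0.23 (9.32e-05). Lrg1, which encodes a secreted glycoprotein, Fpr1, a receptor for bacterial peptides, and Cybb, a subunit of the oxidase, were the 3 higher genes, at 1.41 ± 0.33 (edgeR, adjusted p = 0.00281), 1.07 ± 0.23 (0.00127) and 0.44 ± 0.10 (0.00213). Mmp8, the collagenase of the specific granule, averaged 39.2 CPM in bleomycin and 39.3 CPM in saline libraries. Ly6g, the surface protein by which mouse neutrophils are commonly stained, averaged 0.773 CPM after bleomycin and 1.73 CPM after saline (-1.17 ± 0.52; adjusted p = 0.0714).

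By granule, 3 of 9 tested genes of the specific granule were lower and 1 higher, 4 of 9 of the gelatinase granule and vesicle were lower and 1 higher, and 11 of 17 mature neutrophil genes were lower and 1 higher. Beside the 26.8% of all genes that were lower, the count for the specific granule is near the background, and it holds Camp. These lists include the members of the 9 that belong to them. Of the 5 listed genes of the primary granule only Prtn3, which encodes proteinase 3, was tested, at 2.14 CPM after bleomycin and 1.83 CPM after saline (0.23 ± 0.51, log2, SE; edgeR, adjusted p = 0.728). Of 10 tested genes for factors that attract neutrophils or drive their growth, 5 were lower and 0 higher. Among them were Csf2, which encodes GM-CSF (-3.02 ± 0.20; edgeR, adjusted p = 2.94e-08), and Il1b (-1.60 ± 0.19; 7.53e-06), while Csf3, which encodes the main growth factor of neutrophils, differed by -0.35 ± 0.14 (0.0429). Of 8 transcription factor and receptor genes of granulocyte development, 3 were higher and 3 lower. Cebpa, which acts early in that lineage and in macrophages, rose by 1.98 ± 0.16 (edgeR, adjusted p = 1.55e-07), and Gfi1, a repressor needed for granulocytes, changed by -1.61 ± 0.20 (1.26e-05).

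**Figure D2:**
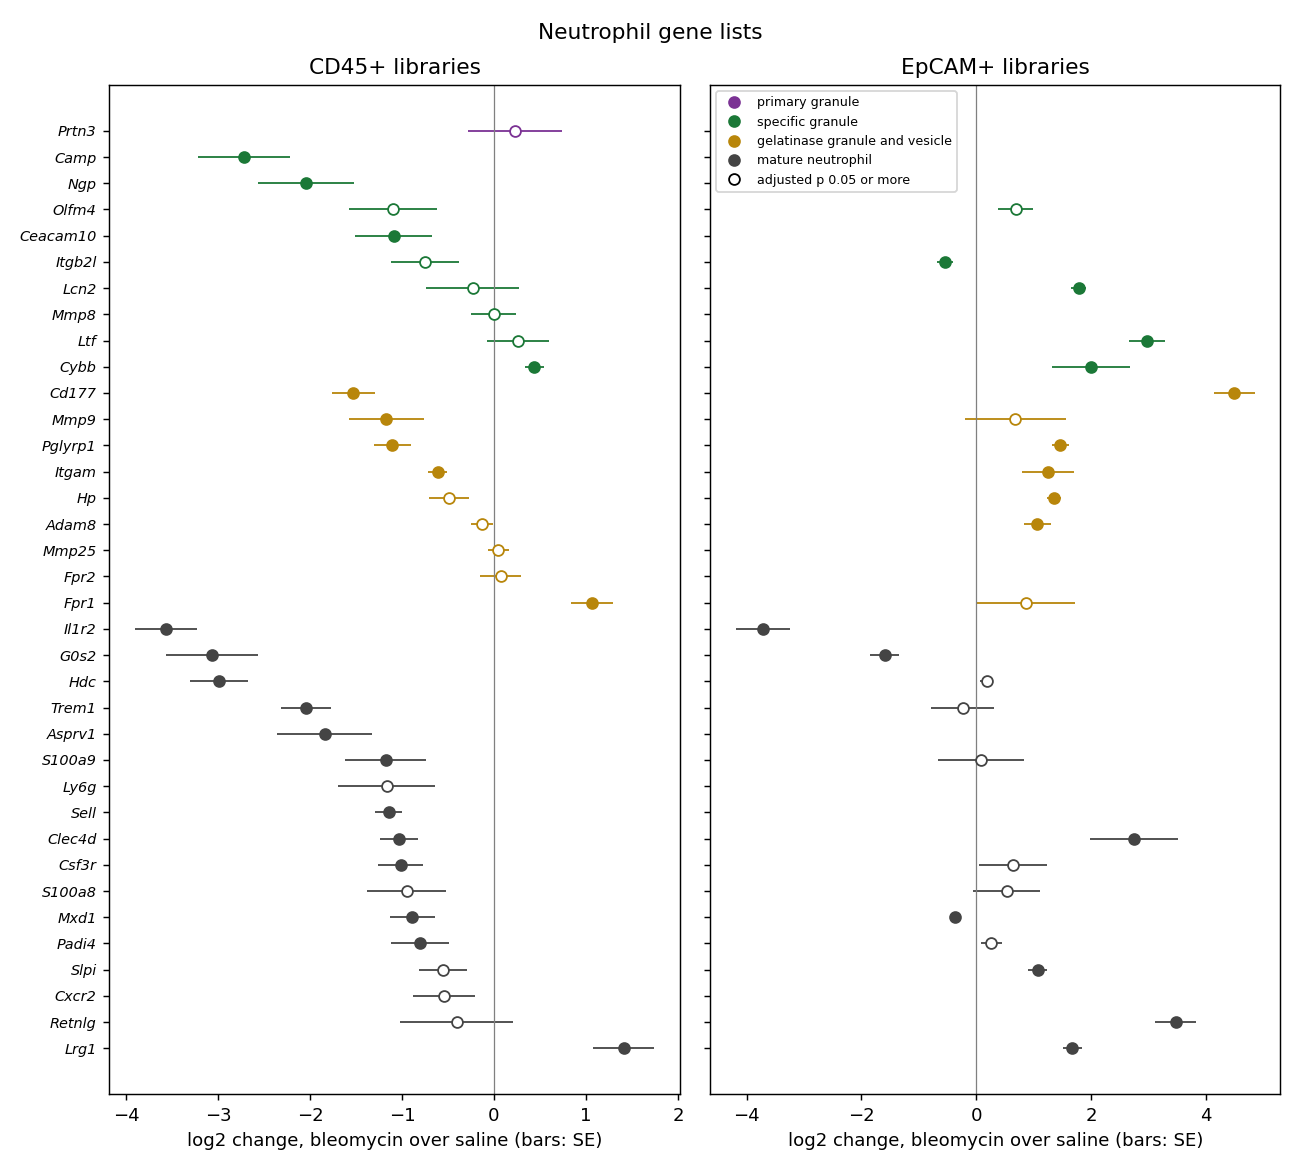
Log2 change after bleomycin of each tested gene on the 4 neutrophil lists, in CD45+ (left) and EpCAM+ libraries (right), with bars for SE and open points for an adjusted p of 0.05 or more. Il1r2 lies farthest left in CD45+ libraries (-3.56), and Cd177 farthest right in EpCAM+ libraries (4.50).

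Markers of other cells were followed in the same libraries, where 26.8% of all genes tested were lower and 28.4% higher. Summed over 12 genes, markers of monocyte-derived macrophages stood at 20270 to 30200 CPM in bleomycin and 3141 to 5356 CPM in saline CD45+ libraries, and all 12 were higher. Markers of alveolar macrophages summed to 845 to 1530 CPM in bleomycin and 129 to 443 CPM in saline libraries. Markers of T cells (9 of 9 tested), B cells (8 of 8) and NK cells (8 of 8) were lower, as were 6 of 10 monocyte markers. Endothelial markers were lower for 11 of 12, with a median log2 change of -1.31, and summed to 325 to 657.4 CPM in bleomycin and 517 to 1333 CPM in saline libraries. Mesenchymal markers were higher for 3 of 12, near the share over all genes. These markers summed to 165 to 8482 CPM in bleomycin and 114 to 346 CPM in saline libraries. Their highest sums were in Bleomycin_CD45_613 (8482 CPM) and in Bleomycin_CD45_616 (2500.0 CPM), the library that stood apart for the neutrophil genes. Red cell markers reached at most 2.93 CPM in sum. The part of these other cells in the neutrophil values was not tested.

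Profiles most like that of S100a8 were sought by the root mean square difference of centred log2 CPM over the 13 CD45+ libraries, among 14846 genes with a mean of at least 1 CPM. S100a9 was nearest (0.167), followed by H2-Q10 (0.190), Stfa2l1 (0.205), Chrm3 (0.269) and Ly6g (0.298), against a median of 0.952 over all genes. Stfa2l1 belongs to the stefin A family of protease inhibitors, and Ly6g is the neutrophil surface protein named above. For Camp the nearest were Coq10b (0.236), Stk17b (0.303), Rilpl2 (0.312), Ifrd1 (0.314) and Rrad (0.314), none of which is a gene of the granule lists, against a median of 0.866. Camp reached at most 0.438 CPM in bleomycin libraries, below the 0.5 CPM added before the log, which shrinks its profile. These 5 genes changed by -1.63 to -1.26 (log2) after bleomycin, against -2.72 for Camp. For Mpo, whose counts are near 0, the nearest distance was 0.219 (D330023K18Rik) against a median of 0.524. Among the 9 genes, G0s2 and Ltf were farthest apart (1.90), and Camp and Ngp stood at 0.524. Such distances hold the group difference and the depth of the libraries, and they are given as a description.

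Outside CD45+ cells the same genes were looked for in the other sorted fractions, on CPM scaled over all 51 libraries. In saline libraries the median of S100a8 was 334 CPM in CD45+ and 0.709, 0.237 and 1.14 CPM in CD31+, EpCAM+ and triple-negative libraries. S100a9 stood at 1156 CPM against 1.87, 0.497 and 3.06 CPM in the same order, and Retnlg at 80.4 against 0.112, 0.617 and 0.190. For each of the 3 genes the CD45+ median stood far above those of the other fractions. Of the 7 tested genes, 6 were higher in saline CD45+ libraries than in the mean of the other fractions, where 39.2% of all genes tested were. The differences were 9.61 for S100a9, 9.05 for S100a8, 8.495 for Retnlg, 6.47 for Ngp, 5.07 for G0s2 and 4.09 for Camp on the log2 scale. Outside CD45+ cells, Camp exceeded the filter level of the fraction in 0 libraries and Ngp in 3, all saline triple-negative. Both thus entered chiefly through CD45+ libraries, so they add no support to the count of 6 and are given with no test. Of the others, the highest edgeR adjusted p was 8.03e-22, for G0s2.

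Ltf was the exception, at 0.53 ± 0.31 (log2, SE; edgeR, adjusted p = 0.114). In saline libraries its order was EpCAM+ (median 14.9 CPM), CD45+ (4.51), CD31+ (3.98) and triple-negative (1.06). EpCAM+ exceeded CD45+ by 1.65 ± 0.36 (log2, SE; edgeR, adjusted p = 6.86e-05), as did 38.5% of all genes tested, whereas CD45+ and CD31+ did not differ beyond their spread (0.67 ± 0.38; 0.113). After bleomycin Ltf was lower in CD45+ libraries than in the mean of the others (-1.18 ± 0.25; edgeR, adjusted p = 3.58e-05), as were 44.2% of all genes tested. By level, then, Ltf was highest in epithelial cells and not in the leukocyte fraction. G0s2 stood in second place in triple-negative libraries, at a median of 40.2 CPM against 331 CPM in CD45+ saline libraries. After bleomycin CD45+ and triple-negative libraries did not differ beyond their spread for G0s2 (-0.33 ± 0.28; edgeR, adjusted p = 0.278).

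**Figure D3:**
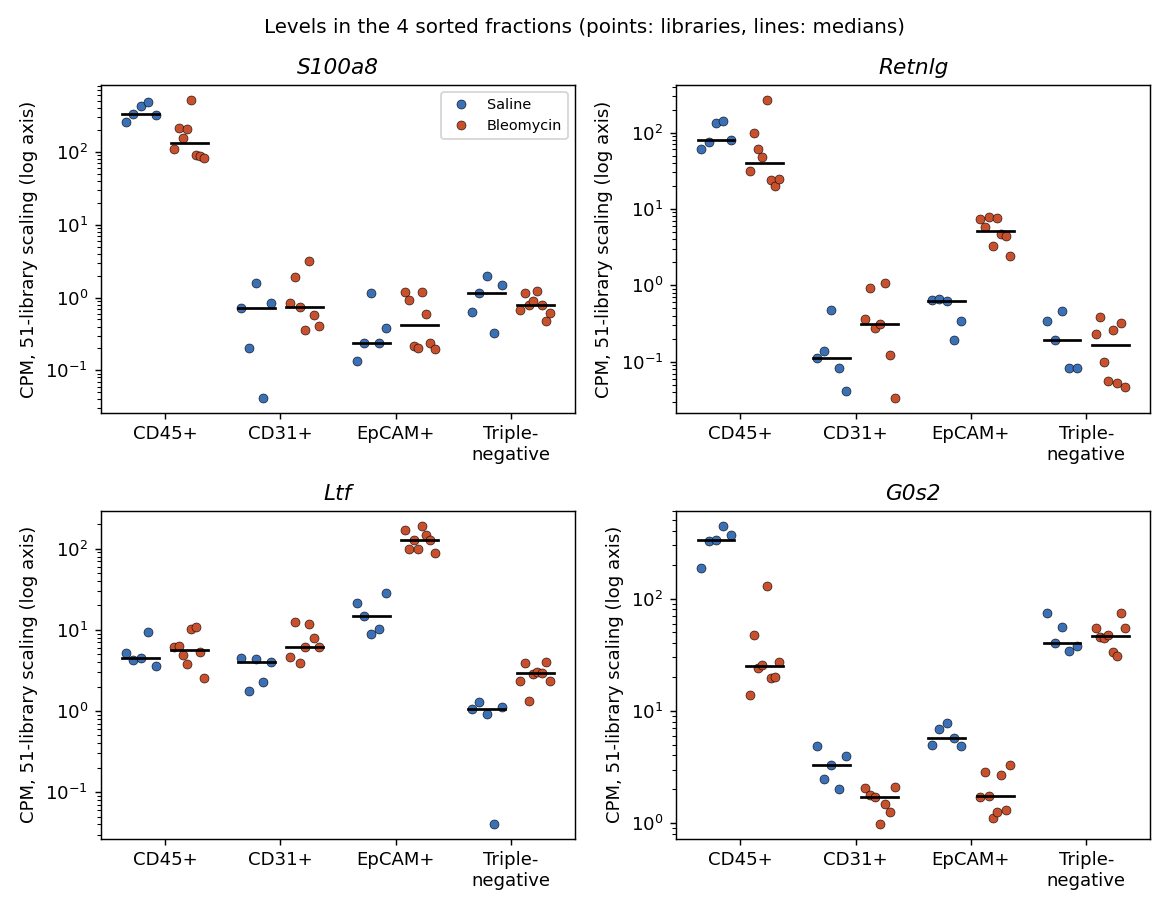
Levels of S100a8, Retnlg, Ltf and G0s2 in the 4 sorted fractions, in CPM scaled over all 51 libraries on a log axis. Points are libraries, lines are medians, and colours mark the treatment. S100a8 has its high values in CD45+ libraries (saline median 334 CPM), Ltf is highest in bleomycin EpCAM+ libraries (median 129 CPM), and G0s2 in triple-negative libraries has medians of 40.2 CPM (saline) and 46.6 CPM (bleomycin).

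In EpCAM+ libraries 5 of the 9 genes were tested. Ltf and Retnlg were higher after bleomycin, where 31.2% of all genes tested were, and G0s2 was lower, where 28.9% were. Ltf stood at 20.6, 14.6, 8.40, 10.2 and 27.2 CPM in saline libraries and at 87.3 (lowest), 124 (median) and 186 CPM (highest) in bleomycin libraries. Every bleomycin library lay above every saline library, as for 18.5% of all genes tested here with bleomycin higher. The difference was 2.97 ± 0.31 (log2, SE; edgeR, adjusted p = 2.99e-06), or 7.86-fold. The promoter of Ltf (chr9:111019042-111019291, plus strand, RefSeq, GRCm38.p6) is shown with that of Ngp (chr9:110419558-110419807, plus strand), because the genes share a granule and differ in where they were expressed. Capitals mark C/EBP matches, of which Ltf had 1, beginning 75 bases before the start, and Ngp 2, beginning 138 and 11 bases before it.

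Ltf promoter: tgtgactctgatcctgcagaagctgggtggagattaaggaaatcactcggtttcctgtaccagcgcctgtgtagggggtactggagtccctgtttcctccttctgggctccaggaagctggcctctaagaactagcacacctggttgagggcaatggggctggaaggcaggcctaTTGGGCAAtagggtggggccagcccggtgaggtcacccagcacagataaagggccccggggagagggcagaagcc
Ngp promoter: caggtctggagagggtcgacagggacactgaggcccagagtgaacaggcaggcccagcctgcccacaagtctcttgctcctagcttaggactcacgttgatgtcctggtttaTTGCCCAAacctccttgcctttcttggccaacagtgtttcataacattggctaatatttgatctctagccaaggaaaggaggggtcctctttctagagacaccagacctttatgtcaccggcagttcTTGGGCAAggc

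S100a8 and S100a9 did not pass the threshold here. In EpCAM+ libraries S100a8 stood at 0.578 ± 0.438 CPM (SD, n = 8) after bleomycin and 0.410 ± 0.389 CPM (SD, n = 5) after saline (0.53 ± 0.58, log2, SE; edgeR, adjusted p = 0.447). S100a9 stood at 0.645 ± 0.795 and 0.633 ± 0.504 CPM (0.08 ± 0.75; 0.931), and its sign turned without Bleomycin_EpCAM_632 (-0.65). Among the other listed neutrophil genes 10 of 20 tested were higher and 3 lower in EpCAM+ libraries, where 31.2% and 28.9% of all genes tested were. The higher ones included Cd177 (4.50 ± 0.35, log2, SE; edgeR, adjusted p = 2e-07), Lcn2, a siderophore-binding protein that epithelia also make (1.78 ± 0.13; 2.4e-08), and Hp, which encodes haptoglobin (1.36 ± 0.12; 1.42e-07). Ptprc stood at 1.68 to 14.0 CPM in bleomycin and 4.32 to 11.2 CPM in saline EpCAM+ libraries, with overlapping groups.

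Retnlg stood at 0.613, 0.650, 0.590, 0.186 and 0.330 CPM in saline EpCAM+ libraries and at 2.34 (lowest), 5.06 (median) and 7.45 CPM (highest) in bleomycin libraries. The groups did not overlap, as for 18.5% of all genes tested here with bleomycin higher, and the difference was 3.48 ± 0.36 (log2, SE; edgeR, adjusted p = 9.86e-07). Only 3 of the 5 saline libraries exceeded the filter's 0.434 CPM against 8 of 8 bleomycin libraries. Retnla, a close relative whose product is made by macrophages and airway epithelium in type 2 inflammation, lies 28.1 kb from Retnlg on chromosome 16. It rose in the same libraries from 18.3 ± 5.25 CPM (SD, n = 5) to 1878 ± 891 CPM (SD, n = 8), by 6.68 ± 0.47 (log2, SE; edgeR, adjusted p = 8.3e-08). Their coding sequences differ at 58 of 351 aligned bases (83.5% identity, from GENCODE transcripts). The last 240 aligned bases of both are shown, with the 45 that differ in capitals, because these bases separate reads of the genes.

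Retnlg, coding bases 112 to 351: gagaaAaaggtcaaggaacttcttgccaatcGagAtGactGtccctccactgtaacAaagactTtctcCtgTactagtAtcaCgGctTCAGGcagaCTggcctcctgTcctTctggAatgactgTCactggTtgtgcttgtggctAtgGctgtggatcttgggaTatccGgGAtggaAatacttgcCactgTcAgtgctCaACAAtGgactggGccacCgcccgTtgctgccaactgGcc
Retnla, coding bases 175 to 414: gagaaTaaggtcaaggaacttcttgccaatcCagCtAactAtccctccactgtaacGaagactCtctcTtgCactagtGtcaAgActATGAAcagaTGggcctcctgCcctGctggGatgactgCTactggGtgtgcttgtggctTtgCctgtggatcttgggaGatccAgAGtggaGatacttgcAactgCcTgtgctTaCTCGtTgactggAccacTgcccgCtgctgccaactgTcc

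Of 563 stretches of 31 bases in Retnlg transcripts, 31 (5.51%) also occurred in Retnla, and the longest shared run had 49 bases. It lies at bases 35 to 83 of the Retnlg transcript, before the coding sequence and outside the stretch shown, and reads within it cannot be told apart. The ratio of Retnlg to Retnla spanned a narrow range in bleomycin EpCAM+ libraries, at 2.36 (lowest), 2.82 (median) and 3.73 (highest) Retnlg counts per 1000 Retnla counts. In saline EpCAM+ libraries it ran from 12.3 to 57.4 and in bleomycin CD45+ libraries from 119 to 1290. The ratio was also low in bleomycin CD31+ (0.651 to 8.27, median 4.32) and triple-negative libraries (1.61 to 10.1, median 4.62). In saline libraries of these fractions it ran from 37 to 197 and from 31.2 to 218. No source used here gives how the counting treated reads that match both genes, and the part of Retnla reads in the Retnlg counts of EpCAM+ libraries was not tested.

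**Figure D4:**
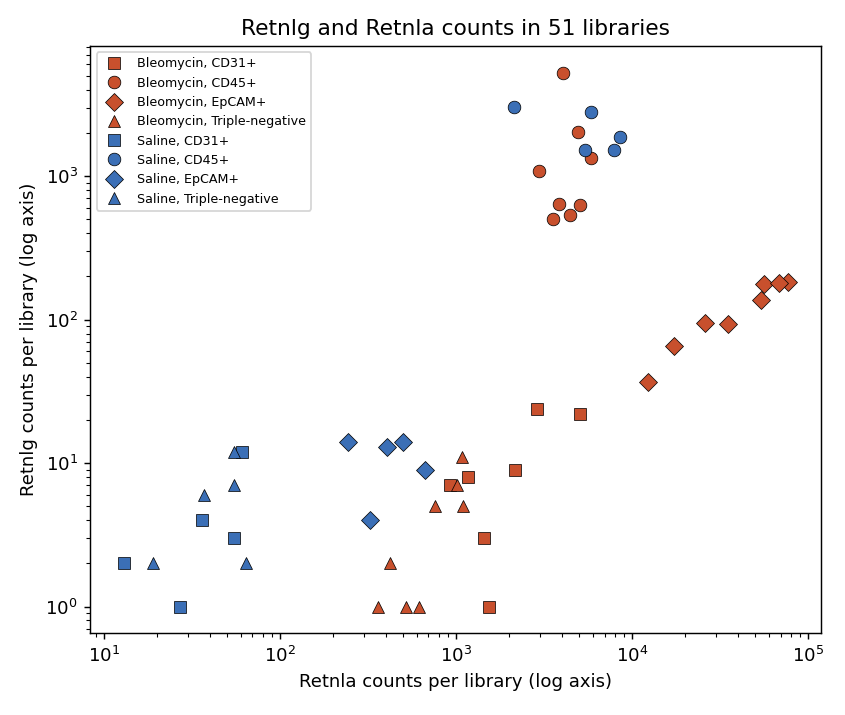
Retnlg counts (vertical, log axis) against Retnla counts (horizontal, log axis) in each of the 51 libraries, with shapes for fractions and colours for treatment. The 8 bleomycin EpCAM+ libraries lie along a band at 2.36 to 3.73 Retnlg counts per 1000 Retnla counts, and CD45+ libraries lie far above it. Bleomycin CD31+ and triple-negative libraries have medians of 4.32 and 4.62.

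G0s2 in EpCAM+ libraries stood at 4.82, 6.78, 7.40, 5.58 and 4.69 CPM (saline) and at 1.07 (lowest), 1.68 (median) and 3.22 CPM (highest, bleomycin). The groups did not overlap, as for 17.3% of all genes tested here with bleomycin lower, and the difference was -1.60 ± 0.25 (log2, SE; edgeR, adjusted p = 3.97e-05). G0s2 was lower after bleomycin in both CD45+ and EpCAM+ libraries.

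In CD31+ libraries 4 of the 9 genes were tested. Ltf was higher after bleomycin, where 24.2% of all genes tested were, and G0s2 was lower, where 24.6% were. Ltf stood at 4.53, 1.76, 4.42, 2.25 and 4.01 CPM in saline and at 3.86 (lowest), 6.09 (median) and 12.4 CPM (highest) in bleomycin libraries, with 6 of 7 above every saline library (1.14 ± 0.34, log2, SE; edgeR, adjusted p = 0.0147). G0s2 stood at 4.91, 2.48, 3.34, 2.002 and 3.97 CPM in saline and at 0.979 (lowest), 1.69 (median) and 2.08 CPM (highest) in bleomycin libraries. Of the 7 bleomycin libraries 5 lay below every saline library (-1.04 ± 0.24; edgeR, adjusted p = 0.00358). S100a8 (0.74 ± 0.71; adjusted p = 0.405) and S100a9 (0.41 ± 0.64; 0.613) did not pass the threshold, and S100a9 turned to -0.19 without Bleomycin_CD31_624. Of the other listed neutrophil genes, 11 of 20 tested were higher and 0 lower in CD31+ libraries, with a median log2 change of 1.48. Markers of other cells were higher too: 9 of 12 of leukocytes, all 12 of monocyte-derived macrophages and 4 of 12 of epithelium, with 0 lower in these 3 lists. Leukocyte markers summed to 258 to 770.1 CPM in bleomycin and 196 to 273 CPM in saline libraries, macrophage markers to 470.2 to 3102 and 149 to 243 CPM, and epithelial markers to 996 to 10690 and 299 to 2408 CPM. Their part in the Ltf counts was not tested. Camp held 8 counts in all in the 5 saline libraries and 1 in the 7 bleomycin libraries, and Mpo held none in any CD31+ library, which allows at most 0.021 CPM over the 176 M counts of the bleomycin group (exact 95% Poisson bound).

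In triple-negative libraries 4 of the 9 genes were tested, and Ltf was the 1 that passed, higher after bleomycin as 27.7% of all genes tested were. It stood at 0.974, 1.2, 0.843, 0.0378 and 1.05 CPM in saline and at 1.23 (lowest), 2.74 (median) and 3.71 CPM (highest) in bleomycin libraries. The groups did not overlap, as for 15.0% of all genes tested here with bleomycin higher (1.69 ± 0.42, log2, SE; edgeR, adjusted p = 0.00356). Ltf was higher after bleomycin in each of the 3 fractions other than CD45+. Of 12 epithelial markers, 5 were higher and 0 lower in triple-negative libraries, where 27.7% of all genes tested were called in each direction. These markers summed to 481 to 1438 CPM in bleomycin and 218 to 1706 CPM in saline libraries. The part of epithelial RNA in these Ltf counts was not tested. G0s2 averaged 45.1 ± 12.4 CPM (SD, n = 8) and 44.9 ± 15.5 CPM (SD, n = 5), a difference of 0.01 ± 0.22 (log2, SE; edgeR, adjusted p = 0.973). S100a9 averaged 1.37 CPM after bleomycin and 2.64 CPM after saline (-0.96 ± 0.42; adjusted p = 0.0641), and it passed the threshold without Bleomycin_Negative_640 (-1.25, 0.0135) or without Saline_Negative_662 (-1.197, 0.0173). Ngp was under the filter, with 5, 30, 13, 1 and 14 counts in saline and 0 to 2 counts in bleomycin libraries. In a fit without the filter it was called lower (-4.00; edgeR, adjusted p = 2.99e-04), a value that depends on libraries at 0. With the filter, all 8 tested B cell markers and 4 of 5 tested red cell markers were lower, where 27.7% of all genes tested were. Their part in the Ngp and S100a9 counts was not tested.

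One fit of all 51 libraries was used to compare the effect of bleomycin across the sorted fractions. The F test over 3 interaction terms passed for 4 of the 7 genes tested, where 64.3% of all genes tested did. These were G0s2 (adjusted p = 1.98e-06), Ltf (2.15e-05), Retnlg (1.32e-04) and Ngp. Within fractions Ngp passed the filter in CD45+ libraries only. It thus entered this fit chiefly through them, adds no support to the count and is given with no test. Camp (0.117), S100a8 (0.0895) and S100a9 (0.146) did not pass. Without Bleomycin_CD45_616 the adjusted p was 0.00601 for S100a8 and 0.0345 for S100a9, and S100a8 also passed without Saline_CD31_651 (0.0407) or Saline_EpCAM_656 (0.0479). The effect on G0s2 was lower in CD45+ than in triple-negative libraries (-3.11 ± 0.46, log2, SE; edgeR, adjusted p = 4.38e-07), CD31+ libraries (-2.11 ± 0.53; 0.00139) and EpCAM+ libraries (-1.51 ± 0.51; 0.0159). Genes with a lower effect in CD45+ made up 19.5%, 21.9% and 21.5% of all genes tested in these 3 contrasts. The effect on Ltf was lower in CD45+ than in EpCAM+ libraries (-2.75 ± 0.46; edgeR, adjusted p = 3.9e-06), and so was that on Retnlg (-3.94 ± 0.73; 2.51e-05). Between CD45+ and triple-negative libraries the effect on Ltf differed by -1.45 ± 0.55 (0.0324), a call lost without Bleomycin_Negative_637 (0.0504), Bleomycin_Negative_642 (0.0534), Saline_CD45_647 (0.101) or Saline_Negative_662 (0.0921), and also in the fit without the filter on low counts (-1.445, adjusted p = 0.0534).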

How the data were processed

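Gene-level counts were deposited by the authors as a table of 51 libraries and as 1 file per library, and 51 of 51 library files equalled the table (columns with no sample: 0). RNA was purified with RNeasy and made into TruSeq Stranded Total RNA libraries, per the labels' protocols, and GRCm38 is named per the submitters' processing notes. Aligner, counter, annotation and strand: not given in the sources used here, which bears on overlapping and similar genes. Of 36528 Entrez identifiers, 31049 were matched to a symbol.

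Counts were tested within each fraction with edgeR 4.0.16 (limma 3.58.1, R 4.3.3): filterByExpr with a minimum count of 10, TMM scaling, robust quasi-likelihood fits and Benjamini-Hochberg adjustment over all genes tested at 0.05. Differences between fractions came from 1 fit of all 51 libraries with 8 group means. Means are of CPM, and likeness used log2(CPM + 0.5). The code was tested on simulated data. Alternatives were DESeq2 1.42.0 size factors, library totals, no filter, the DESeq2 Wald test, 1 fit of all libraries, each library left out and, chosen after seeing the data, the column blocks of the deposited table.

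The 9 members and all lists were chosen with earlier results of these data known. Named genes are the members in every fraction, of each list those past the threshold with the largest change, the marker of each sort, and the 5 nearest profiles. Other genes named, among them Lrg1, Fpr1, Cybb, Mmp8, Ly6g and Retnla, were chosen after their values were seen. Promoters are from RefSeq and transcripts from GENCODE. Labels give no animal for a library, so p-values measure the spread between libraries, which may be technical. Depth sets the limit of detection of 3 counts per library.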

Additional observations from a re-analysis of the deposited data

Results flagged for a closer look

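In 55 sets of 1 gene in 1 group, the gap between the highest or lowest library and its neighbour was set against the range of the group, and chance marks about 1 set in 20. Retnlg was high in Saline_CD31_651, with a gap of 0.726 of the range, and Ltf low in Saline_Negative_662 (0.795). Mpo was high in Bleomycin_CD45_612 (0.686), Bleomycin_EpCAM_634, which held all of the Mpo counts of its group (a gap of 1), Bleomycin_Negative_640 (0.638) and Saline_Negative_660 (0.741). Elane was high in Bleomycin_CD45_614 (0.584), Bleomycin_Negative_640 (0.599) and Saline_CD45_644 (0.757). All of the Mpo and Elane values are a few counts per library.

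The effect of bleomycin differed between the fractions for 4 of the 7 genes tested, by the edgeR F test over the interaction terms. It did so for 64.3% of all genes tested, so the count is near the background. The adjusted p was 1.98e-06 for G0s2, 2.15e-05 for Ltf, 0.000132 for Retnlg and 0.0154 for Ngp. For Ngp the EpCAM+ libraries held 0 to 3 counts each and the triple-negative libraries 1 to 30 (saline) and 0 to 2 counts (bleomycin). Ngp was under the filter in both fractions. The contrast between the effects in these 2 fractions was 5.51 (log2), a value that depends on libraries at 0 and supports nothing on its own.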

How the results depend on the processing

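No paired analysis was possible because replicate numbers differ between all groups, and which libraries share an animal is not given in the sources used here. The first 26 and the last 25 columns of the deposited table form blocks that the labels do not name, and each alone has fewer libraries. With the block as a covariate in fits of both blocks together, 20 results for the 9 genes within fractions kept their sign and their side of the threshold. In those fits 0 such results turned sign or crossed the threshold. In the first block alone, calls fell to 5684 in CD45+ (from 4692 higher and 4423 lower), to 3179 in CD31+ (from 3890 and 3948) and to 6139 in EpCAM+ libraries (from 5275 and 4893). There 0 other neutrophil genes were higher in CD45+, 1 of the 9 genes was lower in triple-negative libraries, and signs turned for Ltf in CD45+ (-0.17), S100a8 (-0.13) and S100a9 (-0.49) in CD31+, S100a9 in EpCAM+ (-0.46) and G0s2 in triple-negative libraries (-0.24). In the second block alone, calls were 4222 in CD31+ and 5801 in triple-negative libraries (from 4624 and 4626). There 1 of the 9 genes (from 4) and 7 other neutrophil genes (from 14) were lower in CD45+, 0 of the 9 were lower in CD31+ and 0 higher in triple-negative libraries, and signs turned for Retnlg in CD45+ (0.10) and S100a8 in triple-negative libraries (0.15). G0s2 in CD45+ was then -2.62 (edgeR, adjusted p = 0.0584), Ngp -0.92 (0.249), G0s2 in CD31+ -0.29 (0.466) and Ltf in triple-negative libraries 2.03 (0.151). The cause was not tested.

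Without the filter, 2 of the 9 genes were lower in CD31+ and 1 in triple-negative libraries, and S100a9 in CD45+ missed the threshold (edgeR, adjusted p = 0.0742). So did the Ltf effect in CD45+ minus that in triple-negative libraries (0.0534) and the S100a8 effect in CD45+ minus that in CD31+ libraries (0.106). The S100a8 contrast also missed it with DESeq2 size factors (edgeR, adjusted p = 0.054). The count in triple-negative libraries was also 1 with the DESeq2 Wald test and in 1 fit of all libraries. In that fit 1 other neutrophil gene was higher in CD45+, S100a8 in CD45+ passed (-1.0, edgeR adjusted p = 0.0152) and G0s2 in triple-negative libraries was -0.010. With library totals S100a8 in CD45+ passed too (-1.07, 0.0445).

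With 1 library left out, between 3 and 6 of the 9 genes were lower in CD45+ and between 0 and 1 in triple-negative libraries, and between 11 and 20 other neutrophil genes were lower in CD45+. Signs turned within the ranges of S100a9 in CD31+ (-0.19 to 0.77), S100a9 in EpCAM+ (-0.65 to 0.59) and G0s2 in triple-negative libraries (-0.10 to 0.22). They also turned for the CD45+ effect minus that in CD31+ for Camp (-0.33 to 0.91), and minus that in triple-negative libraries for Retnlg (-0.91 to 0.050) and S100a9 (-0.65 to 0.054). Contrasts of the bleomycin effect that passed narrowly were lost in some of 51 such fits. These were CD45+ minus triple-negative for Camp (lost in 32), CD45+ minus CD31+ for S100a8 (41) and CD45+ minus EpCAM+ for Ngp (8). Each also missed the threshold without the filter. Camp and Ngp were under the filter in the other fraction of their contrast, so these contrasts add no support. Depth limits Mpo, Elane, Camp and Ngp outside CD45+ libraries.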

Other observations

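Mmp8, Lcn2 and Prtn3, other granule genes chosen after their values were seen, were higher after bleomycin in triple-negative libraries. Mmp8 rose from 0.421 to 11.1 CPM on average (4.73 ± 0.43, log2, SE; edgeR, adjusted p = 1.28e-06), Lcn2 from 2.27 to 27.4 CPM (3.60 ± 0.34; 2.35e-06) and Prtn3 from 1.29 to 2.56 CPM (0.98 ± 0.25; 0.00409). The saline mean of Mmp8 lay below the filter's 0.442 CPM, so its entry rested chiefly on bleomycin libraries and its test adds no support. Of the neutrophil genes listed beside the 9, 7 of 22 tested were higher and 5 lower there, near the 27.7% of all genes that were called in each direction. Ptprc fell from 21.5 to 11.1 CPM in the same libraries (-0.95 ± 0.32; edgeR, adjusted p = 0.0222).

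Among triple-negative libraries, the highest Mpo and Elane counts of each group were in 1 library. Saline_Negative_660 held 15 Mpo, 2 Elane and 30 Ngp counts, and Bleomycin_Negative_640 held 11 Mpo, 5 Elane and 0 Ngp counts.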
